A study of Mus musculus with 5 samples.

Results

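The genes described here encode potassium channels and the related hyperpolarization-activated HCN cation channels of the mouse retina. They are all genes of the array whose symbol starts with Kcn, or with Hcn and a digit, except Kcnj10 and Kcnj8. The rule found 84 of the 18193 genes that the array annotation names by a single symbol, measured by 167 probe sets. Where a gene had several probe sets the one of highest mean stood for it, and 44 of the 84 lay above the filter that kept the brighter 60% of all genes. The other 40 were too dim to be tested.

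Retinal total RNA was hybridised to 5 Affymetrix mouse arrays, 1 pool of mice for each. For diabetic replicates 1 and 2, 4 retinas from 2 mice were pooled after 5 weeks of diabetes from streptozotocin, a toxin of pancreatic beta cells. For diabetic replicate 3, 6 retinas from 3 mice were pooled after 3 to 4 weeks of experimental diabetes, whose inducing agent its label does not name. For control replicates 1 and 2, 4 retinas from 2 untreated mice of matched age and normal blood glucose were pooled. The labels give no strain, sex or age, and a p-value here measures the spread between pools.

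Potassium channels set the resting voltage of a neuron and end its electrical signals. Assemblies of Kv subunits open when the membrane depolarizes, calcium-activated channels open as calcium enters, inward rectifiers and the two-pore channels hold the resting voltage, and HCN channels open on hyperpolarization and let sodium and potassium through. In the retina such currents shape the light responses of photoreceptors and the spiking of inner neurons, and Muller glia and the pigment epithelium use potassium channels to clear and move potassium.

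The pools held retina as labelled. All 4 measured rod markers, all 5 cone and all 5 Muller glia markers were above the filter in mean level, and none of the 5 lens markers was. The summed signal of the rod markers ran from 359454 to 411081 in diabetic and from 355532 to 408433 in control pools. Markers of tissue around the retina differed between pools. The summed signal of 10 skeletal muscle markers was 79664 in diabetic replicate 3 and 51587 in control replicate 2, against 5348 to 6383 in the other 3 pools. The 5 melanosome markers summed to 22144, 13660 and 18348 in diabetic replicates 1 and 3 and control replicate 2, and to 2672 and 4684 in diabetic replicate 2 and control replicate 1. The 7 pigment epithelium markers summed to 48454 to 74746 in diabetic and 93583 to 139991 in control pools, and the 5 microglia markers to 4397 to 5600 and 6304 to 7400. These last 2 sums did not overlap between the groups, and their part in the members' values was not tested. Of the pigment epithelium markers 6 of 7 were above the filter, but of the microglia markers only 2 of 5, C1qa and Csf1r. C1qa did not overlap between the groups. Csf1r did, with log2 levels of 11.78, 12.06 and 11.60 in diabetic and 11.99 and 12.36 in control pools. Diabetic replicate 2 had 4.32 times as much signal at the 3' as at the 5' control probe sets of beta-actin, against 2.01 to 2.71 times in the others. The same ratio for Gapdh differed less, at 0.90 in diabetic replicate 2 against 0.78 to 0.84 in the others. In bulk retina, fewer cells of a type and less RNA per cell cannot be told apart.

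No channel gene passed the test of diabetic against control pools. Of the 44 tested members, 20 had a higher and 24 a lower mean in diabetic pools, a share of 45.5% higher against 51.9% of all 10916 genes tested. In limma with Benjamini-Hochberg adjustment over all genes tested, 0 members passed an adjusted p of 0.05, as did 0% of all genes, and every member had an adjusted p of 0.999. At an unadjusted p under 0.05 there were 3 members, or 6.82%, where the share over all genes was 3.39%. These were Kcnq3, the 1 higher in diabetic pools (1.8% of all genes), and Kcnk2 and Kcnip2, the 2 lower (1.59% of all genes). The diabetic and control pools did not overlap for 9 members, or 20.5%, against 18.1% of all genes. They lay higher in diabetic pools for 5 members (9.99% of all genes) and lower for 4 (8.15% of all genes). A difference of 0.5 log2 units or more in size was seen for 2 members, Kcnj13 and Kcnk2, and for 1.32% of all genes. Of the members named or counted here as lower, Kcnk2 and Kcnmb2 had diabetic means below the filter level of 9.70. They were tested because of their control values, so their place in these counts rests on their being higher in the controls. The median log2 change of the members was -0.0145, against 0.006 over all genes, and their median absolute change of 0.11 was below their median standard error of 0.15.

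Levels are given as signals, in the linear units of the deposited table. A signal depends on the probes as well as on the transcript, so the order of signals is not an order of transcript amounts. By mean signal, 7 members lay at 10000 or more, 7 from 5000 to 10000 and 30 from there down to the filter, which stood at a signal of about 713. Every subfamily had at least 1 member above the filter. The Kv3, Kv4 and HCN genes measured here were all above it, as were 5 of 7 Kv1 genes and 8 of 12 auxiliary subunits. Of the two-pore genes 3 of 12 were above it, of the Kv2 and silent genes 3 of 9, of the Kv7 genes 1 of 3, of the EAG, ERG and ELK genes 3 of 6, of the calcium- and sodium-activated genes 6 of 11 and of the inward rectifiers 6 of 13.

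**Figure D1:**
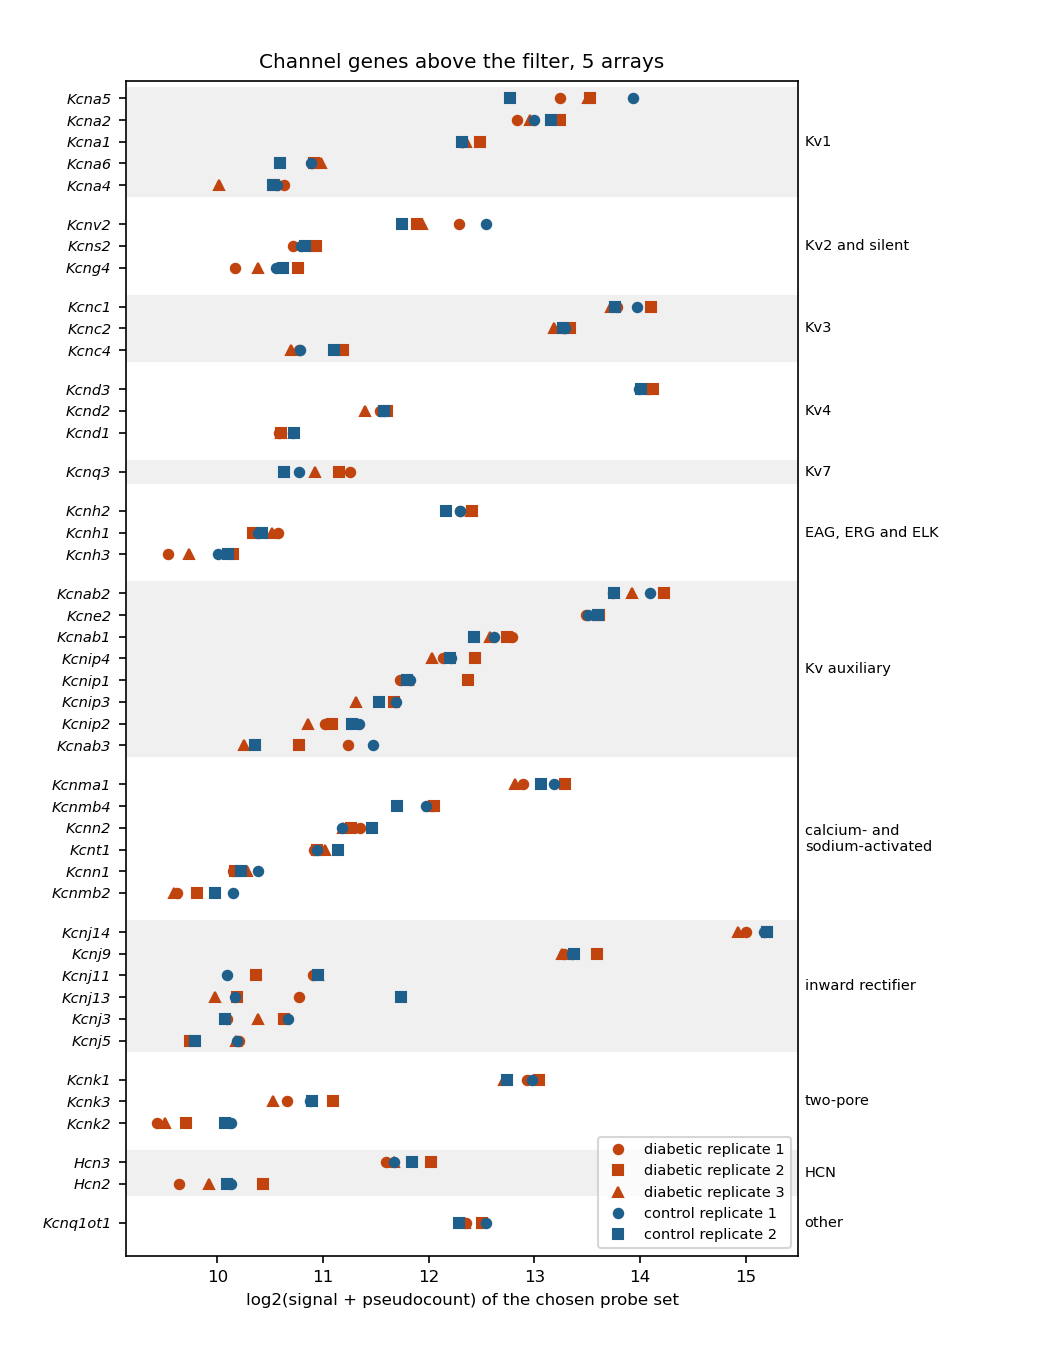
Level of the 44 channel genes above the filter in each of the 5 arrays, as log2(signal + pseudocount) on the x axis, with genes in rows grouped by subfamily. Orange symbols are the 3 diabetic and blue symbols the 2 control pools. Kcnj14 lies farthest right near 15, and Kcna5, Kcnab3 and Kcnj13 have the widest spread.

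Kv1 genes encode Shaker-type channels, which shape spikes and limit firing. Kcna2 gave signals of 7211, 9550 and 7817 in diabetic replicates 1 to 3 and 8049 and 8990 in control replicates 1 and 2. The groups overlapped, with a log2 difference of -0.06 (SE 0.13). Kcna6 gave 1788, 1808 and 1904 in diabetic and 1771 and 1424 in control pools, a log2 difference of 0.19 (SE 0.15) that ranged from 0.05 to 0.34 as control replicate 2 or 1 was left out. The median over the 5 tested Kv1 genes was 0.07, with 3 higher and 2 lower, while Kcna3 and Kcna7 were below the filter.

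Among the Kv1 genes above the filter Kcna5 had the widest spread, and that spread lay within the control group. Its signals were 9592, 11690 and 11560 in diabetic replicates 1 to 3, 15540 in control replicate 1 and 6882 in control replicate 2. The control pools thus held both the highest and the lowest value, and all 3 diabetic pools lay between them. On the log2 scale the means were 13.43 ± 0.16 (SD, n = 3) in the diabetic pools and 13.35 ± 0.82 (SD, n = 2) in the controls, a difference of 0.07 (SE 0.28, 95% interval -0.56 to 0.71, limma adjusted p = 0.999). It was -0.51 on leaving out control replicate 2 and stood at 0.65 on leaving out control replicate 1.

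Kcnv2 encodes a silent subunit that makes no channel alone and joins Kv2 subunits in the inner segments of photoreceptors. Its loss causes a human cone dystrophy with enlarged rod responses. It gave signals of 4892, 3661 and 3800 in diabetic replicates 1 to 3, and 5862 and 3313 in control replicates 1 and 2. As with Kcna5, the control pools held the highest and lowest values. The log2 difference was -0.11 (SE 0.22, 95% interval -0.62 to 0.41), with -0.51 when control replicate 2 was left out and 0.29 when control replicate 1 was. Rod marker signal moved with it in part, since the rod sum was lower in control replicate 2 (355532) and diabetic replicate 2 (359454) than in the other 3 pools (406649 to 411081). The part of rod RNA in the Kcnv2 values was not tested. The silent subunit gene Kcns2 gave 1561, 1832 and 1825 in diabetic and 1656 and 1703 in control pools, a difference of 0.04 (SE 0.14), and 6 of the 9 genes of this subfamily were below the filter.

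Kv3 channels open and close fast and serve neurons that fire at high rates, among them starburst amacrine cells. Kcnc1 gave signals of 13960, 17470 and 13440 in diabetic and 15920 and 13750 in control pools. Kcnc2 gave 9777, 10220 and 9200 in diabetic and 9888 and 9746 in control pools. Groups overlapped for both, and the 95% intervals of their log2 differences ran from -0.28 to 0.29 for Kcnc1 and from -0.21 to 0.18 for Kcnc2.

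Kv4 channels carry the transient A-type current that delays firing, and KChIP subunits bind their inner ends and modify them. Kcnd3 varied little, with signals of 17190, 17770 and 17540 in diabetic and 16120 and 16380 in control pools. Its log2 level was 14.10 ± 0.02 (SD, n = 3) in the diabetic pools and 14.00 ± 0.02 (SD, n = 2) in the controls, a difference of 0.11 (SE 0.07, 95% interval -0.06 to 0.27, limma adjusted p = 0.999). All 3 diabetic pools were above both controls, by a small margin. Its 2 probe sets above the filter were both higher in diabetic pools. The mean over all 4 probe sets, which includes those below the filter, gave -0.04 instead. Kcnd1 went the other way, with 1409, 1437 and 1430 in diabetic and 1556 and 1571 in control pools, a log2 difference of -0.12 (SE 0.14) with no overlap. Kcnd2 overlapped, with 2849, 2988 and 2571 against 2944 and 2932, at -0.07 (SE 0.12).

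Among the KChIP genes, Kcnip2 had the smallest p. It gave signals of 1957, 2052 and 1729 in diabetic replicates 1 to 3 and 2468 and 2353 in control replicates 1 and 2. Every diabetic pool was below both controls. The log2 means were 10.99 ± 0.12 (SD, n = 3) and 11.31 ± 0.05 (SD, n = 2), a difference of -0.32 (SE 0.13, 95% interval -0.62 to -0.02, unadjusted p = 0.041 and limma adjusted p = 0.999). Its 2 further probe sets, both below the filter, differed by -0.24 and 0.60, and the mean over all 3 probe sets differed by 0.01. Within the pools of low muscle signal, diabetic replicates 1 and 2 against control replicate 1, the chosen probe set differed by -0.29. Within those of high muscle signal, diabetic replicate 3 against control replicate 2, it differed by -0.42. Since its groups did not overlap, neither value could turn in sign. Kcnip3 encodes a KChIP that also binds DNA as a calcium-dependent repressor, and it gave 3170, 3143 and 2426 in diabetic and 3180 and 2827 in control pools, with overlap and a difference of -0.05 (SE 0.15).

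Other auxiliary subunits were among the brightest probe sets. Kcnab2, a beta subunit of Kv1 channels related to aldo-keto reductases, gave 13620, 19060 and 15430 in diabetic and 17380 and 13730 in control pools. Kcne2, a small single-span subunit that modifies several channels, gave 11390, 12380 and 12320 in diabetic and 11490 and 12290 in control pools. Its 95% interval of -0.18 to 0.21 was narrow, and Kcnab2 ran from -0.30 to 0.38. Kcnab3, named after its values were seen, gave 2286, 1626 and 1098 in diabetic and 2722 and 1191 in control pools, and its second probe set above the filter was nearly level across pools, from 10.59 to 10.97 on the log2 scale. Kcne1, Kcne3, Kcne4 and Kcne1l were below the filter.

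Kcnq3 encodes a subunit of the M-current channel, a slow Kv7 current that restrains repetitive firing, and was the only Kv7 gene above the filter. Its signals were 2327, 2158 and 1822 in diabetic replicates 1 to 3 and 1625 and 1461 in control replicates 1 and 2. Each diabetic pool was above both control pools, with the 2 pools of 5 weeks above the pool of 3 to 4 weeks. The log2 means were 11.11 ± 0.17 (SD, n = 3) and 10.70 ± 0.10 (SD, n = 2), a difference of 0.41 (SE 0.15, 95% interval 0.07 to 0.76, unadjusted p = 0.0239 and limma adjusted p = 0.999). With single arrays left out it lay between 0.34 and 0.51. It was 0.44 within the pools of low and 0.30 within those of high muscle signal. As its groups did not overlap, these values could not turn in sign. A second probe set of Kcnq3, below the filter, differed by 0.19 and overlapped, and with the mean over both probe sets the difference of 0.30 no longer had an unadjusted p under 0.05. Kcnq1 and Kcnq5 were below the filter.

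Of the ether-a-go-go group, Kcnh2 encodes the ERG channel that repolarizes heart muscle and is also found in neurons. It gave 4896, 5330 and 5277 in diabetic and 4894 and 4476 in control pools. The groups were apart by only 2 units of signal at their nearest pools, and the log2 difference was 0.14 (SE 0.10). Kcnh1 gave 1402, 1174 and 1348 against 1220 and 1251, with overlap and a difference of 0.07 (SE 0.16).

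Among calcium-activated channels, Kcnma1 encodes the pore of the large-conductance BK channel, and Kcnmb2 and Kcnmb4 encode its beta subunits. Kcnma1 gave 7491, 9898 and 7091 in diabetic and 9183 and 8445 in control pools, with overlap and a log2 difference of -0.12 (SE 0.14) that became -0.27 on leaving out diabetic replicate 2 and -0.03 on leaving out diabetic replicate 3. It had 5 probe sets above the filter, of which 4 were lower and 1 higher in diabetic pools. The beta subunit genes differed in opposite directions. Kcnmb4 gave 4061, 4123 and 4005 in diabetic and 3894 and 3204 in control pools, a log2 difference of 0.20 (SE 0.12) that was 0.06 without control replicate 2. Kcnmb2 gave 664.6, 774.1 and 649.7 in diabetic and 1012 and 884.9 in control pools, a log2 difference of -0.39 (SE 0.19, 95% interval -0.83 to 0.05, unadjusted p = 0.0759 and limma adjusted p = 0.999). Pools did not overlap for either gene. The diabetic mean of Kcnmb2, 9.67 on the log2 scale, was below the filter level of 9.70, so the gene was tested because of its control values. In all, 5 of the 6 tested genes of this subfamily were lower and 1 higher, with a median of -0.09, and 5 were below the filter. These directions are those of the chosen probe sets. Kcnt1, counted as lower, had 3 probe sets above the filter, of which 2 were higher and 1 lower in diabetic pools. Kcnn1 was counted as lower too, but its second probe set, below the filter, differed by 0.44 without overlap. The second probe set of Kcnmb2, also below the filter, differed by -0.66 with overlap.

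Inward rectifiers pass potassium more easily into the cell and stabilise the resting voltage. Kcnj14 gave the highest signal of all members, at 32810, 37570 and 31040 in diabetic and 36760 and 37680 in control pools. Diabetic replicate 2 lay among the controls and the other diabetic pools lay below them. The log2 difference was -0.14 (SE 0.09, 95% interval -0.35 to 0.06), and became -0.22 with diabetic replicate 2 left out and -0.08 with diabetic replicate 3 left out. Kcnj9, a subunit of the channels that G proteins open, gave 9847, 12230 and 9719 in diabetic and 10400 and 10520 in control pools, a difference of 0.01 (SE 0.11). Kcnj2, a strong inward rectifier of muscle and vessels, gave only 4.65 to 17.4 in the 5 arrays.

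Kcnj13 encodes the potassium channel of the apical membrane of the pigment epithelium. It gave signals of 1632, 1047 and 885.7 in diabetic replicates 1 to 3, 1029 in control replicate 1 and 3290 in control replicate 2. Only control replicate 2 stood apart, and control replicate 1 lay within the diabetic range. The log2 difference was -0.64 (SE 0.42, 95% interval -1.59 to 0.32, limma adjusted p = 0.999), and without control replicate 2 it was 0.15. The 7 pigment epithelium markers had their highest sum, 139991, in the same pool, and 6 of the 7 were above the filter. Their sum in control replicate 1, 93583, was above all 3 diabetic pools while Kcnj13 was not. The part of pigment epithelium RNA in the Kcnj13 values was not tested.

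Kcnj11, the pore subunit of the ATP-sensitive channel that also occurs in beta cells and muscle, was named after its values were seen. It gave 1799, 1201 and 1863 in diabetic and 970.4 and 1860 in control pools, and was high in diabetic replicates 1 and 3 and control replicate 2. These were the 3 pools of high melanosome signal, while muscle signal was high in only 2 of them. The second probe set of Kcnj11, below the filter, was instead highest in control replicate 1. Its log2 levels were 8.20, 7.25 and 8.79 in diabetic and 8.83 and 8.71 in control pools. What part RNA of neighbouring tissue had in these values was not tested.

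Two-pore channels carry a background leak current. Kcnk1 gave 7695, 8315 and 6580 in diabetic and 7967 and 6726 in control pools, and Kcnk3 gave 1495, 2069 and 1356 against 1762 and 1789. Both overlapped, with log2 differences of 0.03 (SE 0.12) and -0.13 (SE 0.19). Kcnk2, which responds to membrane stretch, heat and fatty acids, had the smallest p of all members. Its signals were 566.4, 712.8 and 603.9 in diabetic replicates 1 to 3 and 1002 and 958.7 in control replicates 1 and 2. Every diabetic pool was lower than both controls. The log2 means were 9.54 ± 0.14 (SD, n = 3) and 10.10 ± 0.04 (SD, n = 2), a difference of -0.56 (SE 0.20, 95% interval -1.01 to -0.11, unadjusted p = 0.0198 and limma adjusted p = 0.999). With single arrays left out it lay between -0.64 and -0.50. It was -0.57 within the pools of low and -0.58 within those of high muscle signal. Since the groups did not overlap, none of these values could turn in sign. Kcnk2 is dim: its diabetic mean was below the filter level of 9.70, and the gene was tested because of its control values. The other 9 two-pore genes were below the filter.

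HCN channels carry a current that speeds recovery from light responses in photoreceptors. Hcn3 gave 2983, 4038 and 3135 in diabetic and 3137 and 3545 in control pools, a log2 difference of 0.01 (SE 0.15). Hcn2 gave 676.8, 1258 and 846.1 in diabetic and 1001 and 968 in control pools, a difference of -0.12 (SE 0.25). Diabetic replicate 2 was the highest pool for both genes, and without it the differences were -0.12 and -0.33. Among the remaining Kcn symbols, Kcnq1ot1, a long noncoding RNA of the imprinted Kcnq1 locus, gave 5110, 5695 and 5066 in diabetic and 5844 and 4881 in control pools, a difference of -0.02 (SE 0.11).

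**Figure D2:**
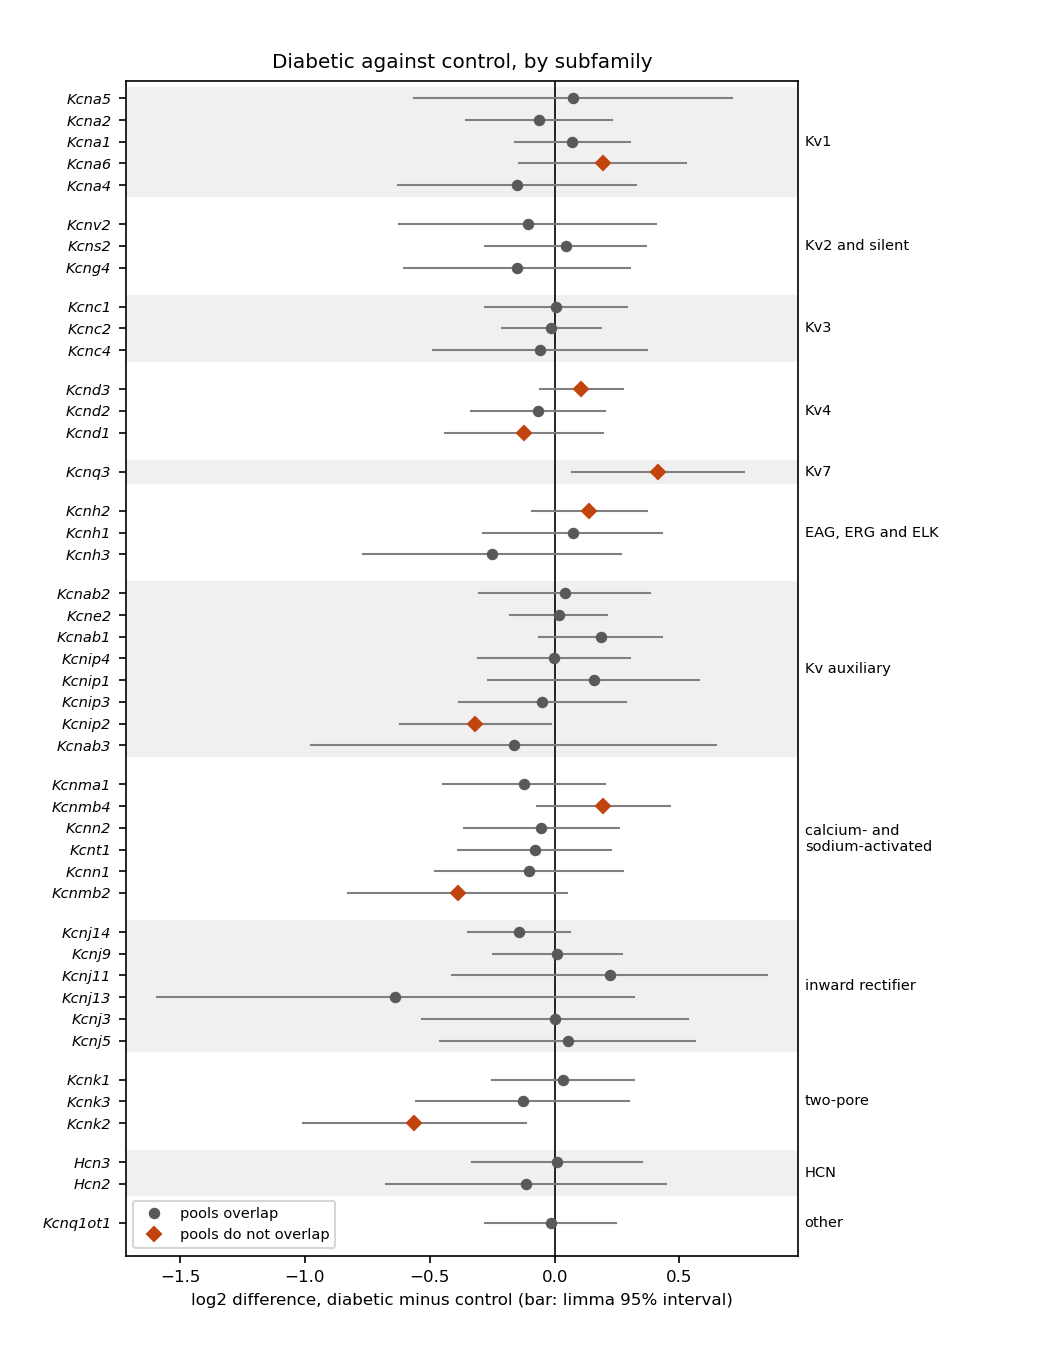
Log2 difference, diabetic minus control, of the 44 tested channel genes on the x axis, with genes in rows grouped by subfamily and bars for limma's 95% interval. Orange diamonds mark the 9 genes whose pools did not overlap and grey circles the others. The intervals of Kcnq3, Kcnip2 and Kcnk2 leave out 0, and no gene passed after adjustment.

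By subfamily, medians other than that of the single Kv7 gene lay between -0.13 for two-pore genes and 0.07 for both Kv1 and EAG, ERG and ELK genes. They were -0.11 for Kv2 and silent, -0.01 for Kv3, -0.07 for Kv4, 0.007 for auxiliary, 0.0066 for inward rectifier and -0.05 for HCN genes. No subfamily had more than 1 gene at an unadjusted p under 0.05. Of the 15 genes with more than 1 probe set above the filter, 11 had at least 1 probe set higher and 1 lower in diabetic pools.

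**Figure D3:**
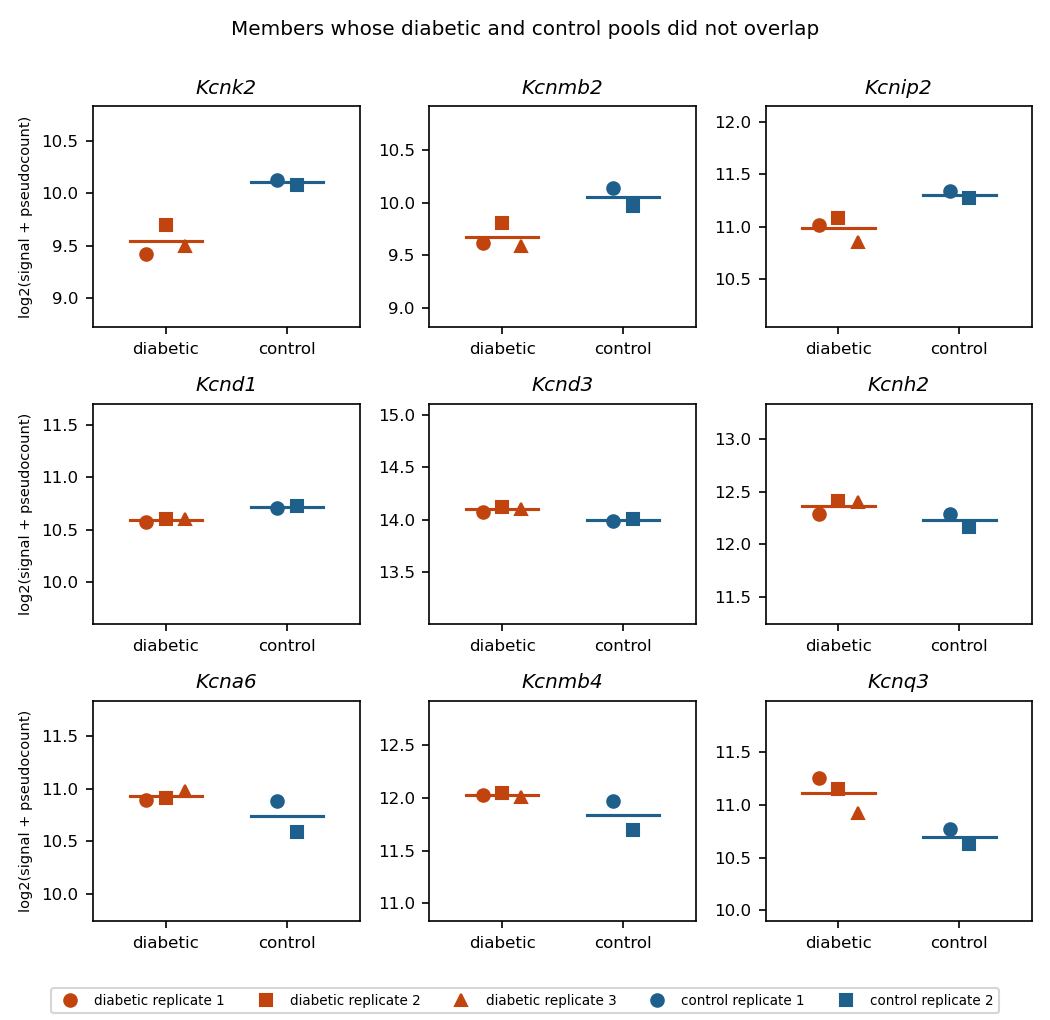
The 9 channel genes whose diabetic pools all lay above or all below both control pools. Each panel plots log2(signal + pseudocount) per pool, with symbols by replicate, a line at the group mean and a y axis of the same length. Kcnk2 shows the widest separation, while in Kcnh2 and Kcna6 the nearest pools of the groups almost touch.

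Several members varied more within the control group than between the groups. The 2 control pools lay 0.5 log2 units or more apart for 6 of 44 members, or 13.6%, where 4.28% of all genes did so, a description that was chosen after the values were seen. The 5 pools spanned 1 log2 unit or more for 3 of the 44, Kcna5, Kcnab3 and Kcnj13, and for 2.3% of all genes tested. For Kcna5, Kcnab3, Kcnv2 and Kcnj3 control replicate 1 was the higher, by 1.16, 1.12, 0.80 and 0.59. Among all 10916 genes the excess of Kcna5 in control replicate 1 ranked 6th, that of Kcnab3 9th and that of Kcnv2 34th. For Kcnj13 and Kcnj11 control replicate 2 was the higher, by 1.57 and 0.86. Kcnab3 encodes a beta subunit that can bind Kv1 channels. Diabetic pools did not follow one order across them: diabetic replicate 1 was the highest diabetic pool for Kcnab3 and Kcnv2 and the lowest for Kcna5.

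**Figure D4:**
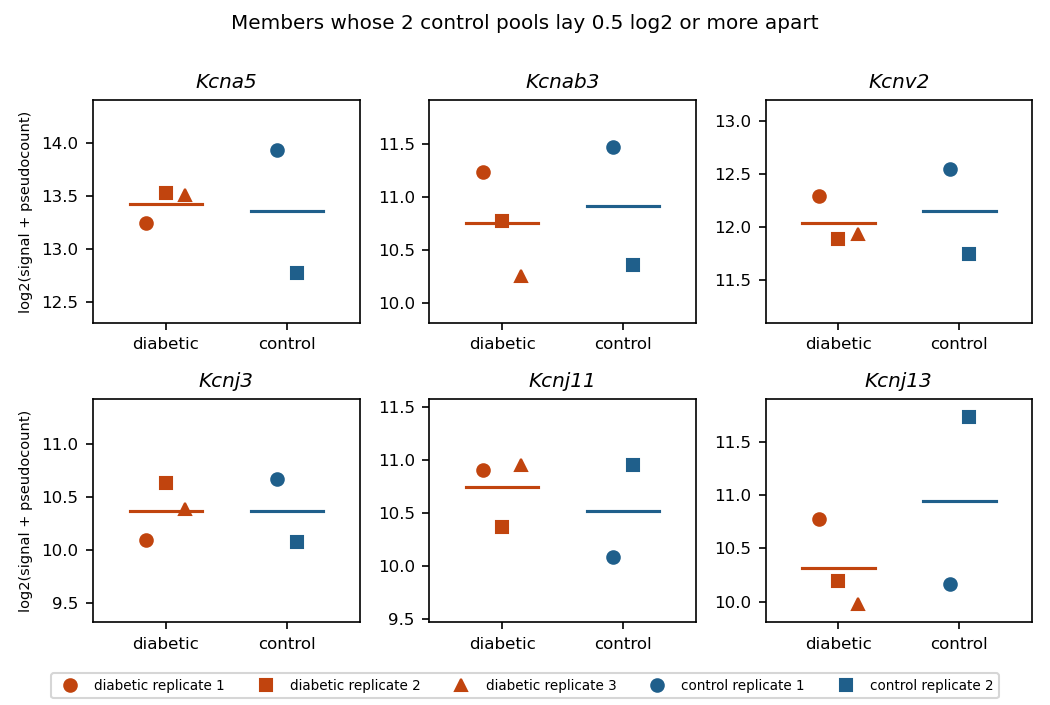
The 6 channel genes whose control pools lay 0.5 log2 units or more apart. Each panel plots log2(signal + pseudocount) per pool, with symbols by replicate and a line at the group mean. In Kcna5, Kcnab3, Kcnv2 and Kcnj3 control replicate 1 is above control replicate 2, and in Kcnj11 and Kcnj13 the order is turned.

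The sequences before the start sites of Kcna5 and Kcnj13 are shown because these genes had, among the tested members, the widest gaps between control pools, one in each direction. They are the 250 bases before the RefSeq start, on the minus strand of GRCm38.p6, at chr6:126535556-126535805 for Kcna5 and chr1:87394730-87394979 for Kcnj13. RefSeq's promoter table held such windows for 63 of the 84 members. Capitals mark CATGTG or its reverse complement, the word of the M-box that pigment cell factors of the MITF family bind.
Kcna5: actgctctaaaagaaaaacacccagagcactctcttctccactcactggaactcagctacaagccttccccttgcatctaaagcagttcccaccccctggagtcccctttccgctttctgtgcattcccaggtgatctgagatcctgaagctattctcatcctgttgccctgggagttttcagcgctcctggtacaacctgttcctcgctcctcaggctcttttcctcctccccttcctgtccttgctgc
Kcnj13: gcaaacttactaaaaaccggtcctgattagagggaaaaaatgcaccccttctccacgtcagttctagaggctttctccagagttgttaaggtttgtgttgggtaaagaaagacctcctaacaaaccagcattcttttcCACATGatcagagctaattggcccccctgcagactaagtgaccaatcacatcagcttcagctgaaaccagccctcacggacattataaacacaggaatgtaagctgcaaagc

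The word CATGTG, searched on both strands, was in the Kcnj13 window and in 12.3% of all 32851 windows of this length, and in 2 of the 88 windows of members. TAATCC, the core word of the photoreceptor factor CRX, was in 6.25% of all windows and in 1 window of members, that of Kcnj9. CACGTG, the E-box, was in 6.02% of all and in 5 of the 88. Neither TAATCC nor CACGTG was in the windows of Kcna5 and Kcnj13. These matches describe letters in a window and say nothing of binding.

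Diabetic replicate 2 was the highest of the 5 pools for 22 of 44 members, or 50%, where it was the highest for 32.8% of all genes. Diabetic replicate 3 was the lowest for 16 members, or 36.4%, against 20% of all genes. Across the members, the median deviation from the gene's own mean was 0.10 in diabetic replicate 2 and -0.09 in diabetic replicate 3. Over all genes tested it was 0.03 and -0.01 in these pools. Members also deviated by 0.05 in control replicate 1 and by -0.07 in diabetic replicate 1. Diabetic replicate 2 is the pool of the high beta-actin ratio. It also had the lowest median signal over all probe sets, 634.6 against 693.9 to 714.7 in the others. Diabetic replicate 3 is the pool of the highest muscle signal and of the shorter diabetes. The part of these traits of the pools in the members' values was not tested.

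Proteins that work with these channels but carry other symbols gave 18 genes of a list of 20, of which 14 were tested, 7 higher and 7 lower, with a median of -0.0065. In limma none passed after adjustment (adjusted p = 0.9995 in each), and 3 had an unadjusted p under 0.05, or 21.4% against 3.39% of all genes. Dpp10, which joins Kv4 channels together with KChIPs, had log2 levels of 10.62, 10.57 and 10.28 in diabetic and 9.87 and 10.09 in control pools, which differed by 0.51 (SE 0.18). Pex5l, which binds HCN channels and governs their place at the membrane, had log2 levels of 13.69, 13.52 and 13.40 against 13.77 and 13.89, which differed by -0.29 (SE 0.10). Dlg4, the scaffold that clusters Kv1 channels at synapses, differed by -0.30 (SE 0.10). Groups did not overlap for these 3 genes, which were named after their values were seen.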

How the data were processed

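The deposited table holds signal intensities, 1 for each probe set, on a linear scale. All 5 deposited columns share a mean of 2500.0 once the lowest and highest 2% are left out, so they had been scaled before deposit. The authors' summarization method is not given in the sources used here. Probe sets with 1 gene symbol were named through the platform annotation, with symbols updated by Entrez ID, which altered no member's symbol. Intensities were taken as log2(signal + 120.6), the pseudocount being the 20th percentile of all values, so fold changes of dim genes are understated. The probe set of highest mean stood for its gene, the upper 60% of 18193 genes were tested, and limma (lmFit, eBayes with a trend) fitted diabetic minus control on 3 residual degrees of freedom, with p-values adjusted by Benjamini-Hochberg over 10916 genes. The steps were tested on simulated data with log2 changes of 1 and 2. The difference of every tested member was smaller, so recovery of changes of such sizes was not tested.

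Members and lists were chosen with earlier results of these data known. Genes given in every pool were the 2 brightest tested members of each subfamily, up to 6 per direction of smallest p among those without overlap, and a fixed set of channels known from retina. The partner list is the fixed list of the channels' binding proteins. Others are given by counts, or as chosen after their values were seen. Alternatives covered scaling, pseudocount, filter, probe sets, variance model, a replicate block and arrays left out. The number of arrays limits the precision. R 4.3.3, limma 3.58.1 and matplotlib 3.10.9 were used.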

Additional observations from a re-analysis of the deposited data

How the results depend on the processing

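No alternative gave a member past an adjusted p of 0.05. Of 29 named and tested members, 13 kept their direction under every alternative in which they were tested. Among them were Kcnq3, Kcnk2, Kcnmb2, Kcnd1, Kcnj14 and Kcnma1. For those whose groups did not overlap, leaving out arrays could not turn the direction. The cause of the turns given here was not tested. Members at an unadjusted p under 0.05 numbered 3, but 0 in the upper 40% of genes (22 members tested), 1 with a replicate block (Kcnq3) and 1 (Kcna5) without diabetic replicate 3 and control replicate 2, the arrays of high muscle signal. They numbered 2 (Kcnk2 and Kcnq3) with quantile normalization and with centred arrays, 2 (Kcnk2 and Kcnmb2) with the mean over probe sets, where Kcnq3 and Kcnip2 no longer passed, 4 (with Kcnmb2) without a trend, and the same 3 genes with either other pseudocount, without a filter and with robust eBayes. With single arrays left out they numbered from 0 (without diabetic replicate 1) to 5 (without diabetic replicate 2). Nothing in the labels says that the replicate numbers pair the pools. Only 2 numbers are shared, and the block leaves out diabetic replicate 3. Deviations from the group means correlated across genes at 0.131 for number 1 and -0.141 for number 2. Both values rest on the same contrast between the 2 control pools, so they do not settle whether the pools were paired.

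Medians of calcium- and sodium-activated genes were -0.0496 with centred arrays, -0.0531 with the mean over probe sets, -0.1237 without a filter, 0.0358 in the upper 40% (2 genes) and -0.0512 without the muscle arrays. Kv4 was at -0.0094 with the replicate block, 0.0191 in the upper 40% and -0.0123 without the muscle arrays, and EAG, ERG and ELK at 0.1384 in the upper 40% (1 gene). Inward rectifiers were at -0.0657 there and -0.1426 with the mean over probe sets, two-pore genes at -0.3098 with that mean, and Kv1 at -0.0635 without a filter.

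With the mean over probe sets Kcnd3 was at -0.0404, Kcnk1 -0.0581, Kcnab2 -0.1088, Kcnc1 -0.1835, Kcnip2 0.0122 and Kcna2 0.2124, each turned in direction. Turned likewise were Kcnj9 (-0.0018) and Kcnc1 (-0.0104) with quantile normalization, Kcnq1ot1 (0.0273) and Kcnc2 (0.0294) with centred arrays, and Kcne2 (-0.001), Kcnq1ot1 (0.014), Kcnc2 (0.0261) and Kcnip3 (0.071) with the replicate block. Without the muscle arrays so were Kcnc1 (-0.0274), Kcnab2 (-0.1082), Kcna5 (-0.5482), Kcnc2 (0.0157), Kcna2 (0.0436) and Kcnj13 (0.316).

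With single arrays left out, the member median ran from -0.0928 to 0.02, and the medians from -0.1195 to 0.0254 for Kv2 and silent, -0.1131 to -0.0094 for Kv4, -0.1216 to -0.0708 for calcium- and sodium-activated and -0.1118 to 0.0141 for inward rectifier genes. They ran from -0.0993 to 0.101 for auxiliary, -0.2262 to 0.0768 for HCN, -0.1105 to 0.0374 for Kv3, -0.2958 to -0.0115 for two-pore and 0.0152 to 0.1071 for Kv1 genes. A fit without a control leaves 1 control pool, assumed to vary like the diabetic pools. Of the genes that turned, differences ran for Kcna5 from -0.5067 to 0.6547, Kcna2 from -0.1775 to 0.0222, Kcnv2 from -0.5088 to 0.292, Kcnc1 from -0.1105 to 0.11, Kcnc2 from -0.0491 to 0.0261, Kcnab2 from -0.1287 to 0.2085, Kcne2 from -0.0311 to 0.064, Kcnj9 from -0.095 to 0.0689, Kcnk1 from -0.0866 to 0.1537, Hcn3 from -0.1204 to 0.094, Hcn2 from -0.3321 to 0.0629, Kcnq1ot1 from -0.1426 to 0.1115, Kcnj13 from -1.4227 to 0.1468 and Kcnip3 from -0.1318 to 0.071.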
